A study of Arabidopsis thaliana with 6 samples.

Results

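Xyloglucan endotransglucosylase/hydrolases (XTHs) and expansins are the plant proteins best known for loosening the cell wall. Their transcripts were followed in Arabidopsis leaves over the first hours after a spray with paraquat or with detergent alone. Members were the probe sets that name exactly 1 gene whose symbol, with or without an AT prefix, begins XTH, XTR, EXPA, EXPB, EXPL, EXLA or EXLB, or is TCH4. This gave 27 genes of the 13356 that a probe set names alone, each with 1 probe set. They were 9 XTH genes, 4 expansin-like (EXL) genes, 10 alpha-expansin (EXPA) genes and 4 beta-expansin (EXPB) genes. The TAIR10.1 gene table holds 66 genes that meet the same rule, so the XTH family was covered for 9 of 32 genes, the EXPA family for 10 of 24, the EXPB family for 4 of 6 and the EXL family for 4 of 4. The other 39 genes, among them TCH4, were not analysed here. Nor were 2 probe sets that name several genes at once, with a gene that meets the rule among them.

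All 6 samples were rosette leaves of 3-week-old plants that carry the flu1-1 allele in Landsberg erecta (Ler), grown in continuous light and not yet bolting. The paraquat groups were sprayed with paraquat in 0.1% Tween, a detergent, and harvested at 1, 2 and 4 h. The mock groups were sprayed with 0.1% Tween and harvested at the same hours. The dose is 20 mM in the titles and 20 microM in the protocol. Each group was 1 ATH1 array made from RNA pooled over 2 experiments, with leaves of 5 to 6 plants per sample. Plants of the flu mutant lack a negative regulator of chlorophyll synthesis, and paraquat takes electrons from photosystem I and makes superoxide. No group was left unsprayed or had a working FLU gene, so the hour after the spray, the spray itself and the time of day cannot be told apart, and the genotype was the same throughout.

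Xyloglucan is a branched glucan that coats and tethers cellulose in the primary wall. XTH enzymes cut a xyloglucan chain and join the new end to another chain or to water. Expansins loosen the contacts between wall polymers without cutting them and are most active in acid walls. Expansin-like proteins share the expansin fold, and a loosening activity of their own has not been established. The family gene TCH4 was first found as a transcript that rises within minutes when a plant is touched, sprayed or shaken.

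Values are the deposited signals, which were scaled to a common level on each array, so that only relative changes can be seen. A signal was taken as low when it lay under a floor of 86.2, the 40th percentile of all signals. Arrays had medians of 157.7 to 162.0, with 59.1% to 60.8% of their probe sets over the floor. The mesophyll markers RCA, LHCB4.1, LHCB4.2, LHCB4.3 and PSAE-1 lay above the floor on 6 of 6 arrays, the guard cell gene FMA from 249 to 320 and the phloem sugar transporter gene SWEET11 from 7713 to 9614. Among the mesophyll markers, LHCB4.2 was higher with paraquat (5806, 4811 and 6699 at 1, 2 and 4 h, against 3515, 3092 and 5066 in mock leaves, limma adjusted p = 0.042), and its part in the results below was not tested. The root gene PYK10 stayed at or under 33.1 and the seed gene OLEO3 at or under 58.5. TUA1, listed as a pollen marker, stood at 1028 to 1333 on all arrays. In whole leaves, fewer cells of a type and less RNA per cell cannot be told apart.

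Of the 27 genes, 9 lay above the floor on all 6 arrays, 11 on at least 3, which were the ones tested, and 6 on 1 or 2. The other 10 lay below it on every array, at 1.02 to 73.0. These were XTH20, XTH21, XTH26, XTH29, EXPA20, EXPA21, EXPA24, EXPB1, EXPB2 and EXPB5. EXPA7 and EXPA18, known as expansins of root hairs, passed the floor on 1 array each, EXPA7 with 95.9 in mock leaves at 1 h and EXPA18 with 92.2 in paraquat leaves at 2 h. No order of levels between genes is given, since probe sets differ in how strongly they bind.

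The first question was how these transcripts moved with the hour. XTH18 had signals of 1755, 745 and 206 in paraquat leaves at 1, 2 and 4 h, against 2328, 595 and 39.7 in mock leaves. It was lower at each later hour in both treatments, and in mock leaves at 4 h it was below the floor, so that its signal there was at least 27.0-fold lower than at 1 h. On the scale log2(signal + 34) its slope was -1.45 ± 0.18 per doubling of the hour in paraquat leaves and -2.50 ± 0.18 in mock leaves (moderated SE). Each slope rests on 3 arrays, while the error, as for the other slopes below, was pooled over both treatments. In mock leaves XTH18 fell (limma adjusted p = 0.027), while in paraquat leaves it did not pass (limma adjusted p = 0.087). In paraquat leaves, where both arrays lay above the floor, its signal was 8.51-fold lower at 4 h than at 1 h.

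**Figure D1:**
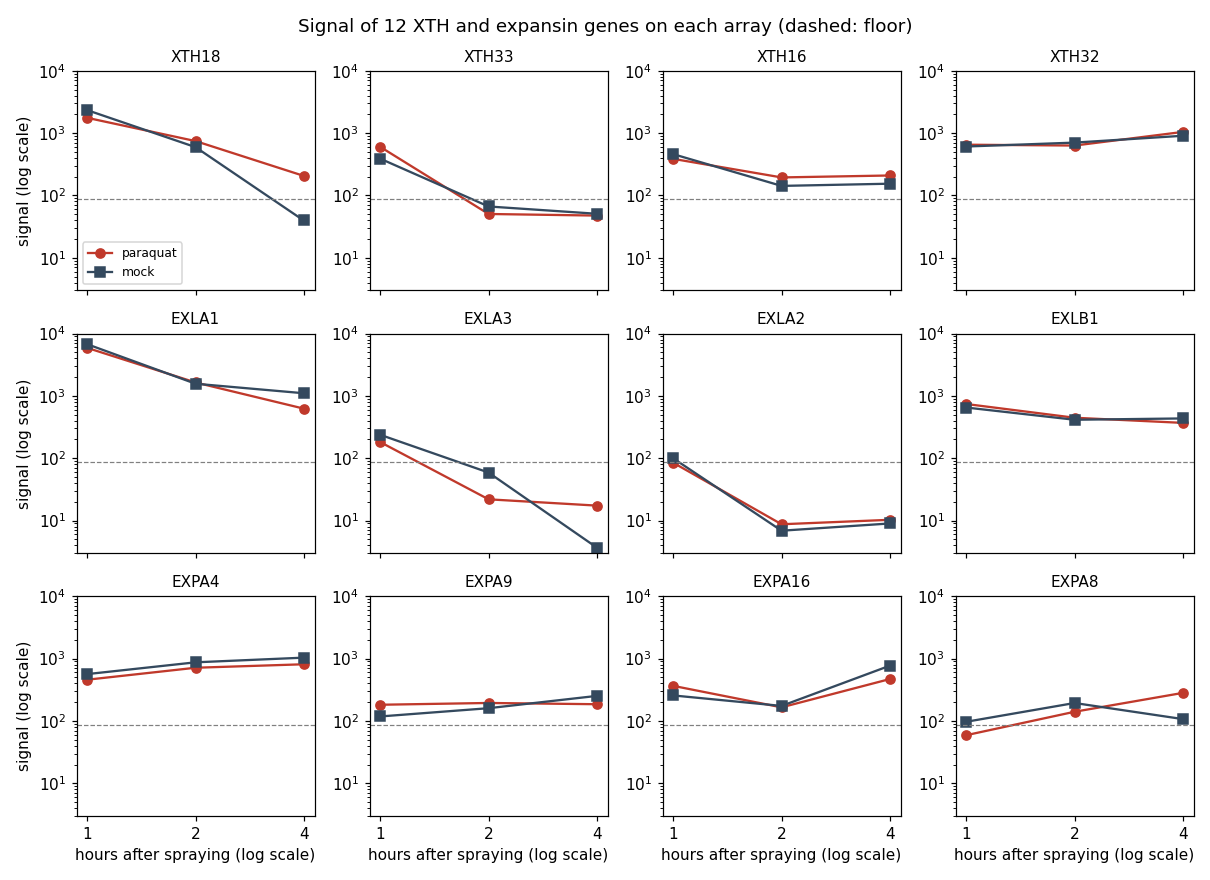
Signal on a log axis against hours after spraying (log axis) for 12 of the genes, with paraquat arrays as red circles, mock arrays as dark squares, 1 array per point and the floor of 86.2 dashed. XTH18, XTH33, XTH16, EXLA1, EXLA3, EXLA2 and EXLB1 are highest at 1 h in both treatments, while EXPA4, EXPA8 and EXPA9 are lowest at 1 h in both.

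XTH33 and XTH16 were also highest at 1 h in both treatments. XTH33 stood at 599, 50.5 and 47.6 in paraquat leaves, against 388, 66.6 and 50.8 in mock leaves. Only the 1 h arrays were above the floor, and there its signal was at least 6.94-fold (paraquat) and 4.50-fold (mock) that of 2 and 4 h. XTH33 was too low on most arrays to be tested.

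XTH16 had signals of 386, 195 and 209 in paraquat leaves, against 459, 142 and 154 in mock leaves. Most of the difference lay between 1 and 2 h in both treatments, and its mock slope of -0.69 ± 0.25 did not pass (limma adjusted p = 0.28). Without the mock array of 1 h its slope was 0.095. XTH32 went the other way, with 652, 632 and 1044 in paraquat leaves, against 610, 704 and 906 in mock leaves. Its mock slope of 0.27 ± 0.13 did not pass either (limma adjusted p = 0.42). XTH19, which lies next to XTH18 in the gene table, had 44.3, 11.3 and 37.9 in paraquat leaves, against 104, 29.1 and 40.9 in mock leaves, and passed the floor on the mock array of 1 h alone.

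All 3 EXLA genes were highest at 1 h in both treatments. EXLA1 had 5867, 1639 and 624 in paraquat leaves, against 6717, 1565 and 1102 in mock leaves. That was 9.40-fold less at 4 h than at 1 h with paraquat and 6.10-fold less in mock leaves. Its slope was -1.58 ± 0.21 in paraquat leaves and -1.29 ± 0.21 in mock leaves (limma adjusted p = 0.087 and 0.072), so neither passed alone. EXLA3, the neighbour of EXLA1 in the gene table, had 181, 21.9 and 17.4 in paraquat leaves, against 237, 58.9 and 3.70 in mock leaves. EXLA2, whose mutants are known for altered resistance to grey mould, had 84.3, 8.72 and 10.3 in paraquat leaves, against 99.0, 6.87 and 8.98 in mock leaves. EXLA3 was above the floor at 1 h only, and EXLA2 on the mock array of 1 h only, with its paraquat signal just under the floor. These 2 genes were given in full after their values had been seen.

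EXLB1, the single gene of the other expansin-like branch, showed a smaller difference. Its signals were 739, 446 and 369 in paraquat leaves, against 649, 414 and 434 in mock leaves. The mock slope was -0.27 ± 0.14 (limma adjusted p = 0.45), and without the mock array of 1 h it was 0.065.

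No EXPA gene tested had this profile. EXPA4 had 459, 714 and 811 in paraquat leaves, against 565, 872 and 1036 in mock leaves, with the higher signal at each later hour in both. EXPA9 had 182, 194 and 185 in paraquat leaves, close together, against 118, 160 and 252 in mock leaves. EXPA16 was lowest at 2 h in both treatments, with 365, 165 and 469 in paraquat leaves, against 256, 174 and 768 in mock leaves.

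The mock slopes were 0.42 ± 0.12 for EXPA4, 0.46 ± 0.12 for EXPA9 and 0.73 ± 0.42 for EXPA16, and none passed (limma adjusted p = 0.20, 0.17 and 0.49). EXPA15 had 216, 196 and 167 in paraquat leaves, against 227, 296 and 211 in mock leaves, with a mock slope of -0.05 ± 0.14 (limma adjusted p = 0.92). EXPA8 had 59.2, 140 and 282 in paraquat leaves, against 97.1, 194 and 107 in mock leaves. It was highest at 4 h with paraquat and at 2 h in mock leaves. The beta-expansin gene EXPB3 stayed between 104 and 138 on all 6 arrays.

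**Figure D2:**
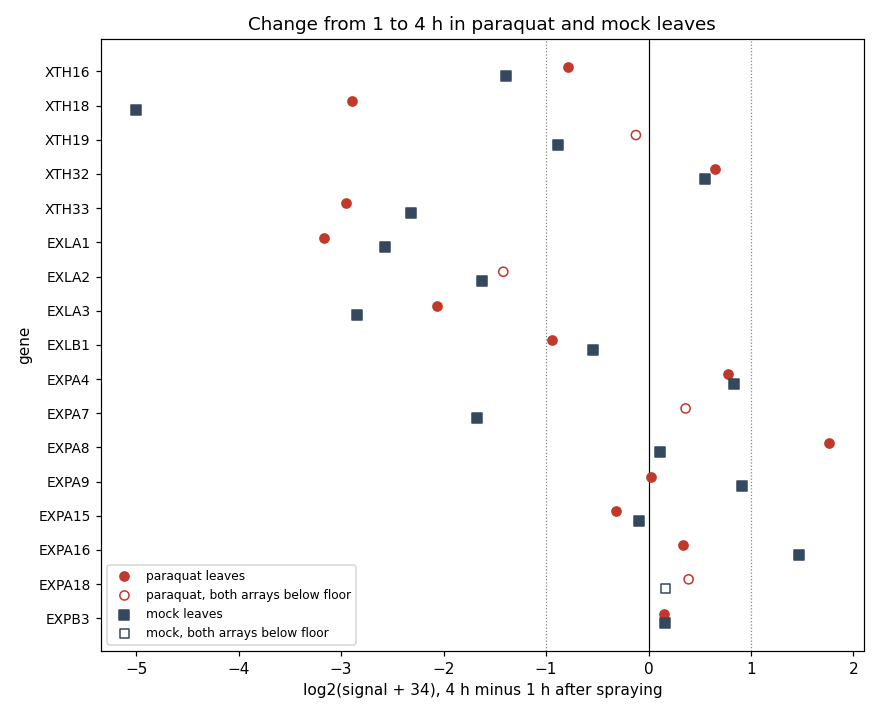
Difference in log2(signal + 34) between 4 and 1 h for the 17 genes above the floor on at least 1 array, with paraquat leaves as red circles, mock leaves as dark squares, open symbols where both arrays lay below the floor and dotted lines at 2-fold. XTH18, XTH33, EXLA1, EXLA3 and EXLA2 (open symbol with paraquat) lie left of the 2-fold line in both treatments, and the EXPA genes lie mostly right of 0.

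Counted over the family, 4 of the 13 genes above the floor at 1 or 4 h were at least 2-fold lower at 4 h than at 1 h in paraquat leaves, against a background of 2.75% of all probe sets. In mock leaves it was 7 of 16, against a background of 3.81%. The 4 were XTH18, XTH33, EXLA1 and EXLA3, and mock leaves added XTH16, EXLA2 and EXPA7. At least 2-fold higher were EXPA8 alone in paraquat leaves (1 of 13, background 2.88%) and EXPA16 alone in mock leaves (1 of 16, background 3.49%). Several of these genes entered the count only through the 1 h array, where they were high, so that they had to differ. At 2 h, 5 of 14 genes were at least 2-fold lower than at 1 h in paraquat leaves (background 1.66%). In mock leaves it was 7 of 16 (background 2.07%). These were not quite the same genes. In paraquat leaves EXPA16 joined the 4 named above, and its signal at 4 h was above that of 1 h (365, 165 and 469). In mock leaves XTH19 was among them and EXPA7 was not.

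XTH19, XTH33, EXLA2, EXLA3 and EXPA7 passed the floor at 1 h alone, and no family median is given because their direction is fixed by that. With 1 array per treatment and hour these counts have no replicate check.

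The slope of mock leaves was tested for 11 members, and 1 passed, XTH18, against 0.882% of the 13837 probe sets tested. The slope of paraquat leaves passed for 0 of the 11 and for 0% of all probe sets by limma. At an unadjusted p under 0.05 by limma there were 5 of the 11 members and 1566 of the 13837 probe sets. For the mock slope these were 5 of the 11 and 2055 of the 13837. With 1 slope for both treatments, an alternative with more residual degrees of freedom, 3 members passed, against 6.68% of probe sets. These were EXLA1 (-1.43 ± 0.15, limma adjusted p = 0.0040) and XTH18 (-1.98 ± 0.23, limma adjusted p = 0.0054), both lower with the hour, and EXPA4 (0.40 ± 0.08, limma adjusted p = 0.026), higher with the hour. In these fits the departure from a straight line in log2 of the hour stands in for replicate error. With 1 slope for both treatments, a difference between their slopes counts as error too, and arrays of the same hour count as independent. XTH18 had slopes of -1.45 in paraquat and -2.50 in mock leaves, so its 1 slope describes neither. The mock slope of XTH18 lost the threshold without the mock array of 4 h (slope -1.91, limma adjusted p = 0.17), without the filter on low signals (limma adjusted p = 0.095) and without the variance trend (limma adjusted p = 0.063).

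The second question was whether paraquat altered the levels. Averaged over the hours, with the hour as a block, 0 of the 11 members passed, against 0.318% of all probe sets. At an unadjusted p under 0.05 there were 1 of the 11 members and 1428 of the 13837 probe sets by limma, so the members' share was no higher for this averaged effect. The member was EXPA4, lower with paraquat at all 3 hours, with log2 ratios of -0.28, -0.28 and -0.34 at 1, 2 and 4 h and a mean of -0.30 ± 0.10 (limma adjusted p = 0.33). Its paraquat signal was 0.81, 0.82 and 0.78 times that of mock leaves. EXPA15 had a mean log2 ratio of -0.29 ± 0.14 and EXLA1 one of -0.30 ± 0.15 (limma adjusted p = 0.53 and 0.55). The other 8 means ran from -0.14 for EXPB3 to 0.54 for XTH18, whose SE of 0.32 reflects ratios of both signs.

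At 1 h, 0 of 16 members were at least 2-fold higher with paraquat (background 0.457%) and 1 was lower (background 0.324%). That gene was EXPA7, with 21.5 in paraquat and 95.9 in mock leaves, the second only 1.11 times the floor. It entered the count through the mock array alone, so it had to be lower with paraquat. The highest log2 ratios were 0.59 for XTH33, 0.51 for EXPA9 and 0.46 for EXPA16. Next to EXPA7 the lowest were -0.82 for XTH19 and -0.49 for EXPA8. At 2 h, 0 of 12 were 2-fold higher (background 0.45%) and 0 lower (background 0.288%). Ratios then ran from -0.52 for EXPA15 to 0.37 for XTH16.

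At 4 h, 2 of 11 members were at least 2-fold higher with paraquat (background 1.24%) and 0 lower (background 0.517%). XTH18 had 206 in paraquat and 39.7 in mock leaves, a log2 ratio of 1.70 and at least 2.39-fold against the floor. EXPA8 had 282 and 107, a log2 ratio of 1.16 and a plain ratio of 2.62. The lowest ratios were -0.79 for EXLA1 (624 and 1102), -0.67 for EXPA16 (469 and 768) and -0.38 for EXPA9 (185 and 252). The median over members was -0.18 at 1 h (16 genes), 0.00 at 2 h (12 genes) and -0.22 at 4 h (11 genes). Over all 27 members, those below the floor included, it was -0.17, 0.035 and 0.043, so its direction at 4 h rests on the filter. XTH19, EXLA2, EXPA7 and EXPA8 were above the floor at 1 h in mock leaves only, so their 1 h ratios had to be negative. Over all probe sets the median lay between -0.02 and 0.00. At 4 h the 3 XTH genes lay above 0 and the 2 EXL genes, 4 of the 5 EXPA genes and EXPB3 below it. XTH18 was above the floor at 4 h in paraquat leaves only, so its direction was fixed by the floor. The XTH genes below the floor on both 4 h arrays had ratios of both signs, from -0.24 for XTH20 to 0.095 for XTH29.

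**Figure D3:**
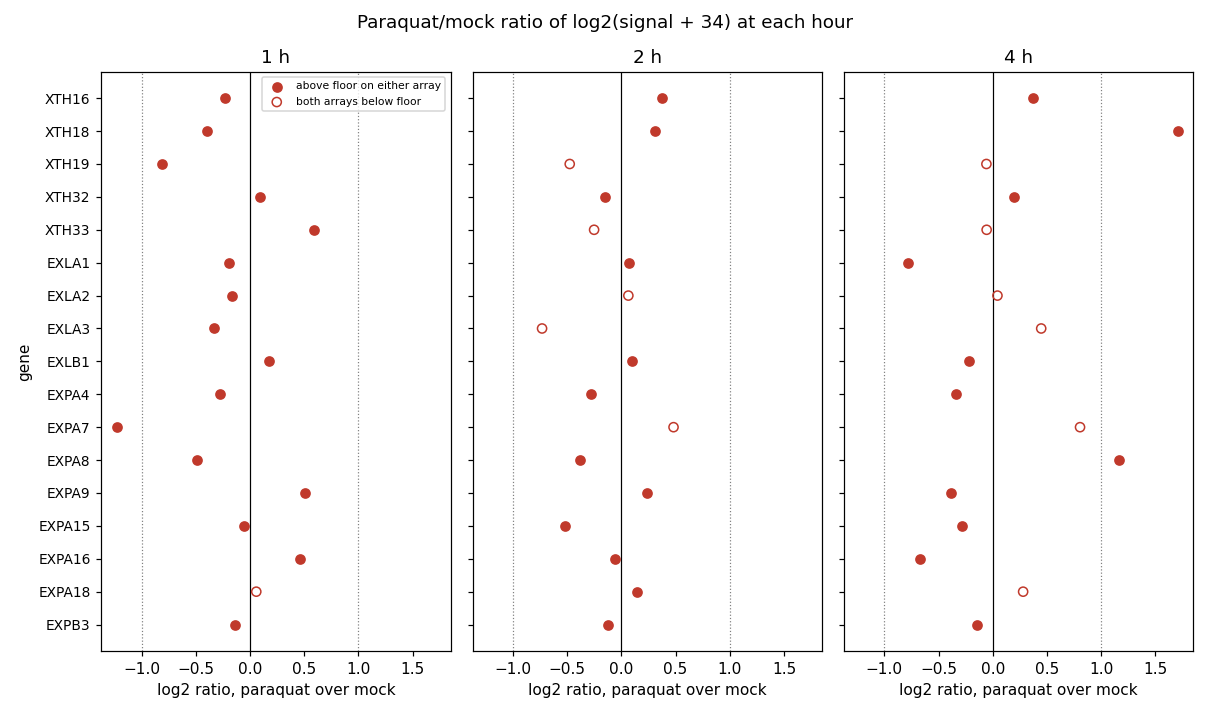
Paraquat/mock log2 ratio at 1, 2 and 4 h for the 17 genes above the floor on at least 1 array, 1 array pair per hour, with open circles where both arrays lay below the floor and dotted lines at 2-fold. Most genes lie within 2-fold at each hour, and XTH18 and EXPA8 lie beyond it on the right at 4 h.

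The third question was whether the paraquat/mock ratio changed with the hour. On simulated data the test of such a change made false calls more often than its nominal rate. Of the 11 members 1 passed, XTH18, against 0.773% of all probe sets. Its log2 ratios were -0.40, 0.31 and 1.70 at 1, 2 and 4 h, a rise of 1.05 ± 0.13 per doubling of the hour (limma adjusted p = 0.0038). The call was lost without the filter on low signals (limma adjusted p = 0.36) and without the variance trend (limma adjusted p = 0.25), and in both 0 probe sets were called in all. The ratio shares the mock arrays with the mock slope above. Both signals were lower at each later hour, and by 4 h the mock signal was below the floor while the paraquat signal was above it. The estimate rests on 1 residual degree of freedom, and 1 array per point cannot separate a changing effect from a deviant array.

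EXPA8 had ratios of -0.49, -0.39 and 1.16, a change of 0.83 ± 0.22 per doubling (limma adjusted p = 0.10). EXPA16 had 0.46, -0.06 and -0.67, a change of -0.57 ± 0.14 (limma adjusted p = 0.079). Neither passed in the main model, but both did with a pseudocount 4 times larger, after centring each array on its 75th percentile, and with the hour on a linear scale. Neither did with a pseudocount 4 times smaller (limma adjusted p = 0.087 for EXPA8 and 0.078 for EXPA16), without the filter (0.55 and 0.49) or without the variance trend (0.30 and 0.29). For EXPA9 the ratios were 0.51, 0.23 and -0.38, a change of -0.44 ± 0.17 (limma adjusted p = 0.29), and for EXLA1 the change was -0.30 ± 0.13 (limma adjusted p = 0.38). XTH16, with ratios of -0.23, 0.37 and 0.37, had a change of 0.30 ± 0.16, which did not pass (limma adjusted p = 0.48). The other 5 tested genes lay between -0.20 and 0.05 per doubling. Without adjustment, 5 of the 11 members had p under 0.05 by limma for this change, against 1695 of the 13837 probe sets. The change was positive for XTH18 and EXPA8 and negative for EXPA9, EXPA16 and EXLA1.

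Other genes of the wall and of growth were taken from symbol lists, and coverage was thin. Of 9 tested genes of the list for cellulose and other wall polysaccharides, 0 passed either treatment's slope or the paraquat tests. That list held no CESA (cellulose synthase) gene. CSLC04, a synthase of the xyloglucan backbone, had 2976, 1059 and 1175 in paraquat leaves, against 3149, 1071 and 958 in mock leaves, and was thus highest at 1 h in both. CSLA03 had 711, 228 and 234 against 640, 235 and 172, and CSLD2 748, 536 and 339 against 852, 579 and 419. Their mock slopes were -0.84, -0.86 and -0.48 (limma adjusted p = 0.23, 0.19 and 0.11), the 3 lowest of the list. Of the other 6, COB, ATCSLC08 and CSLC6 had mock slopes of -0.34, -0.30 and -0.17, and CSLA01, CSLC5 and IRX15-L had mock slopes of 0.30, 0.10 and 0.08.

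Of 4 tested pectin genes, 1 passed the mock slope, against 0.882% of all probe sets. ATPMEPCRB, a pectin methylesterase gene, which removes methyl groups from pectin, had 4425, 1303 and 715 in paraquat leaves, against 5521, 2346 and 879 in mock leaves. It fell in mock leaves by 1.30 per doubling of the hour (SE 0.14, limma adjusted p = 0.041) and had a slope of -1.29 in paraquat leaves (limma adjusted p = 0.080). The pectin synthesis gene GAUT15 had a mock slope of -0.31 and the methylesterase gene PME61 one of -0.30, and neither passed (limma adjusted p = 0.38 and 0.30). Of 5 tested genes of xyloglucan synthesis and trimming 0 passed, with mock slopes of -0.30 for ATCSLC08 and -0.28 for the beta-galactosidase gene BGAL16 beside CSLC04. All of them but BGAL16 are also in the cellulose list above.

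**Figure D4:**
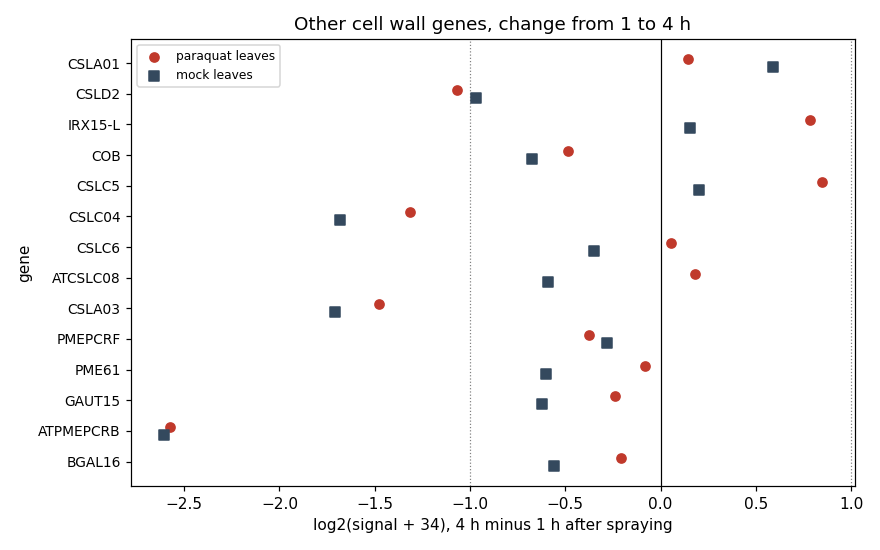
Difference in log2(signal + 34) between 4 and 1 h for 14 tested genes of the cellulose, pectin and xyloglucan lists, with paraquat leaves as red circles and mock leaves as dark squares, 1 array per hour and treatment. ATPMEPCRB, CSLA03 and CSLC04 lie left of the 2-fold line in both treatments.

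Of 7 calmodulin-like genes, the family of the calcium-binding touch genes, 1 passed the mock slope (background 0.882%) and 1 the change of ratio with the hour (background 0.773%). CML42 fell in mock leaves (slope -0.99 ± 0.13, limma adjusted p = 0.043), with signals of 2004, 1199 and 1071 in paraquat leaves, against 2233, 1328 and 543 in mock leaves. CML41 had 1637, 1578 and 968 against 1107, 1716 and 2321, and its paraquat/mock ratio fell by 0.89 per doubling (SE 0.11, limma adjusted p = 0.0035). CML43 had a mock slope of 0.59 (limma adjusted p = 0.12). In mock leaves 3 of the 7 exceeded their 1 h level by 2-fold or more at 4 h (background 3.49%), and 1 was lower by that much (background 3.81%). Among the higher ones, CML23 (19.8 at 1 h, 87.6 at 4 h) and CML43 (83.3 and 233) entered the count only through the 4 h array. Their direction was thus fixed by the floor.

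Of 3 gibberellin receptor genes and 2 tested auxin response genes, 0 passed any of these tests. GID1C had a mock slope of 0.56, GID1A one of 0.37 and GID1B one of 0.26. GH3.3, which conjugates auxin to amino acids, had 113, 421 and 471 in paraquat leaves, against 119, 444 and 330 in mock leaves, and so was lowest at 1 h in both. IAA18, an auxin response repressor gene, had a mock slope of 0.09. The single brassinosteroid gene of the lists, BRL1, lay below the floor on every array.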

How the data were processed

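Deposited values are signal intensities of ATH1 probe sets on a linear scale, made by the authors with MAS5 per the submitters' processing notes. No version or genome build is given in the sources used here, and detection calls were not used. The trimmed mean (2% off each end) was 500.04 on every array. After leaving out 64 control probe sets, 22746 were used, of which 13513 name exactly 1 gene, 503 several and 8730 none. Symbols came from the platform annotation, updated through the gene number to TAIR10.1, and the rule was applied to either symbol. The table serves for names and neighbours only, and no coordinates are given. Probe and protein sequences were not used here, so whether a probe set also detects a close relative was not tested.

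Tests used limma 3.58.1 in R 4.3.3 (lmFit, eBayes with a variance trend) on log2(signal + 34), for the 13837 probe sets that exceeded the floor on 3 or more arrays. The models were the treatment with the hour as a block, the same plus an interaction of treatment with log2(hour), and a slope in log2 of the hour within each treatment. All were two-sided with Benjamini-Hochberg adjustment over all tested probe sets at 0.05. Values after ± are moderated SEs. The 2-fold counts at single hours cover genes above the floor on either array compared. With 1 array per group, hours stand in for replicates, and the number of arrays limits precision. The pseudocount makes log2 differences understate changes of dim genes. A fold given as at least N sets the brighter signal against the floor. The main models were tested on simulated data, where the interaction of treatment with log2(hour) made false calls more often than its nominal rate. In every simulation the spread of gene variances was set by 6.26 prior degrees of freedom, the value that limma gave for the averaged effect. In the data it gave 11.76 for the interaction and 3.87 for the slopes, so their false-call rates in these data are not known. The alternative with 1 slope for both treatments was not simulated.

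Named members were the 5 with the highest mean signal, the 5 lowest and 5 highest mock slopes, the 3 highest and 3 lowest ratios at each hour, and any that passed a test. Up to 3 genes were named per other list. Members and lists were chosen with earlier results of these data known. PRP39, PRP39-2, PMEAMT and FDH matched a list by letters only and were left out by name, which emptied the wall glycoprotein list and the epidermis list.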

Additional observations from a re-analysis of the deposited data

Results flagged for a closer look

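The paraquat/mock log2 ratio of XTH18 differed between hours by the test of its change with log2 of the hour, by 1.05 ± 0.13 per doubling (limma adjusted p = 0.0038). Its ratios at 1, 2 and 4 h were -0.40, 0.31 and 1.70, with signals of 206 in paraquat and 39.7 in mock leaves at 4 h. The mock array of 4 h is the only one on which XTH18 lay below the floor of 86.2. The part of that array alone was not tested. XTH18 did not pass without the filter on low signals (limma adjusted p = 0.36) or without the variance trend (limma adjusted p = 0.25). On simulated data this interaction test made false calls more often than its nominal rate.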

How the results depend on the processing

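The count of 0 members for the averaged paraquat effect held under all alternatives run. For the change of the paraquat/mock ratio with the hour, 1 member passed in the main model, 3 with a pseudocount 4 times larger, 2 after quantile normalization, 3 with centring on the 75th percentile and 3 with the hour on a linear scale. It was 0 without the filter, 0 without the variance trend and 0 with probe sets above the floor on all 6 arrays, among which XTH18 was not. XTH18 had a limma adjusted p of 0.36 without the filter and 0.25 without the trend, against 3.1e-05 to 0.0038 under the others. Over all probe sets this test called 0 to 337. Leaving out an hour leaves it no residual degree of freedom, so it was not run. For the mock slope, 1 passed in the main model and 3 with 1 slope for both treatments, and 0 without the filter, without the trend or on all 6 arrays. With 1 mock array left out it was 0 (without 4 h) to 2 (without 2 h). XTH18 then had slopes of -3.09 to -1.91, and limma adjusted p of 0.095 without the filter and 0.063 without the trend. Over all probe sets 0 to 924 were called. With a pseudocount 4 times larger, the 4 h log2 ratios of XTH18 and EXPA8 were 0.96 and 0.78, both under 2-fold. Members at least 2-fold lower at 4 h than at 1 h numbered 5 to 8 in mock leaves, against 7 in the main setting. In paraquat leaves it was 4 under each setting run. The median ratio at 4 h was 0.043 over all 27 members unfiltered. Genes that changed sign passed no test in the main model for that estimate. With 1 hour left out, the mean paraquat effect ran from -0.047 to 1.006 for XTH18, -0.029 to 0.14 for XTH32, -0.059 to 0.14 for EXLB1, -0.44 to 0.39 for EXPA8, -0.075 to 0.37 for EXPA9 and -0.37 to 0.20 for EXPA16. With 1 mock array left out, the mock slope ran from -1.48 to 0.095 for XTH16, -0.61 to 0.065 for EXLB1, -0.69 to 0.80 for EXPA8, -0.43 to 0.34 for EXPA15, -0.48 to 1.95 for EXPA16 and -0.036 to 0.19 for EXPB3. The mock slope of EXPA8 was -0.019 with the hour on a linear scale, and the change of ratio of EXPB3 was 0.0064 with centring on the 75th percentile. The causes were not tested. Of 346 values for single genes, 316 kept direction and side of the threshold. The labels give no replicate numbers, so arrays were paired by hour alone. Without the hour as a block, the averaged paraquat effect called 0 of all probe sets in place of 44.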
